A study of Mus musculus with 25 samples.

Results

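Dendritic cells take up, process and present antigen to lymphocytes, and they fall into subsets told apart by the transcription factors and surface receptors they express. The genes described here are 10 of the 24984 genes counted, taken from a given list of symbols: the type 1 conventional dendritic cell (cDC1) genes Clec9a, Batf3, Irf8 and Itgae, the type 2 conventional dendritic cell (cDC2) genes Cd209a, Clec10a, Irf4 and Sirpa, the plasmacytoid dendritic cell gene Siglech, and Zbtb46, a transcription factor shared by conventional dendritic cells. They were followed in the stroma of liver tumours and of peritoneal tumours from 4 athymic nude mice (Crl:NU(NCr)-Foxn1nu), with the tumour cells of the same tumours and 9 cultures as the background. The tumours grew from bipotential mouse embryonic liver (BMEL) cells, a line from a C57B/6_C3H mouse, carrying a bicistronic lentiviral vector for H-Ras G12V and a fluorescent protein, and injected into the liver. The peritoneal tumour of each mouse was an extrahepatic growth in the same animal.

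Tumours were dissociated and sorted on fluorescence, with fluorescent cells taken as tumour cells and the remainder as stroma, which gave 4 libraries each of liver stroma, peritoneal stroma, liver tumour cells and peritoneal tumour cells. The cultured groups were BMEL cells with an empty vector (BMEL WT), with low oncogene level (RasLOW) and with high oncogene level (RasHIGH), 3 libraries each, sorted as populations by fluorescence intensity. The labels do not name the Ras population behind each tumour, and the age of the mice is not given in the sources used here. The nude host lacks a thymus, so it has few T cells but keeps B, NK and myeloid cells. Sorting used no leukocyte marker, so the stroma holds leukocytes together with fibroblasts, endothelial cells and any other non-fluorescent cell.

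Conventional dendritic cells arise from Flt3-dependent precursors. The cDC1 lineage needs Irf8 and Batf3 and is specialised in presenting antigen from dead cells to CD8 T cells, and Clec9a is its receptor for exposed actin filaments of such cells. The cDC2 lineage depends in part on Irf4 and carries the lectins Cd209a and Clec10a with the inhibitory receptor Sirpa. Plasmacytoid dendritic cells are the main source of type I interferon, and the lectin Siglech is a mouse surface marker of them. Several of these genes are shared with other cells. Macrophages carry Sirpa, Clec10a and Irf8, B and plasma cells use Irf8 and Irf4, some T cells carry Itgae, and endothelial cells express Zbtb46.

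The sequences just before the start of the most subset-restricted gene of each lineage, and of the shared factor Irf8, are shown to set their promoters beside each other. RefSeq promoter entries of the GRCm38.p6 build were found for 7 of the 10 members (8 entries) and not for Sirpa, Clec10a and Itgae. Each line gives the 250 bases before the start, 5′ to 3′ on the strand of the gene, with capitals at any match to the searched letters TATAAA, GAGGAAGT (PU.1 core), GGAANNGAA (PU.1 and IRF composite), GAAANNGAA (interferon response) and TGANTCA (AP-1), on either strand. The entries lie at chr6:129408612-129408861 on the plus strand (Clec9a), chr8:3748985-3749234 on the minus strand (Cd209a), chr7:55767934-55768183 on the plus strand (Siglech) and chr8:120736108-120736357 on the plus strand (Irf8, the first of its 2 entries).
Clec9a: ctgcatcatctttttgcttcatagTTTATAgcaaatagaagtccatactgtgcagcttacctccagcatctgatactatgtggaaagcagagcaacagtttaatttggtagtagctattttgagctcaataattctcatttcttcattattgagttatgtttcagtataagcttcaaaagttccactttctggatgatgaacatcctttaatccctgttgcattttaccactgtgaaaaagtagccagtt
Cd209a: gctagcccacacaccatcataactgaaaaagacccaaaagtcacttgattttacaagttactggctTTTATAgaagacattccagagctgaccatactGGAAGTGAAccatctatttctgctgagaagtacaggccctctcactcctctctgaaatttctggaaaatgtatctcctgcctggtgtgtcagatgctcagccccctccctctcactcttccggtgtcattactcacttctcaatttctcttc
Siglech: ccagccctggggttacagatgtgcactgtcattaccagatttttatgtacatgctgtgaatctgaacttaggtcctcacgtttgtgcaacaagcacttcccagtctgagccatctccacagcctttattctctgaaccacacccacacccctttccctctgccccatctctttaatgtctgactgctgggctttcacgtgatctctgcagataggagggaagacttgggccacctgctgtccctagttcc
Irf8: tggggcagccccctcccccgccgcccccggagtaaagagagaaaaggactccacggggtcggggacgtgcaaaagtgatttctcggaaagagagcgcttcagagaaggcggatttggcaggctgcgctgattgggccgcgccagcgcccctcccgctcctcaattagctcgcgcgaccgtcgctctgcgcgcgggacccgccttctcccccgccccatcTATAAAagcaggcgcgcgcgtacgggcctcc

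Pairs of C followed by G numbered 0 before Clec9a, 1 before Cd209a, 2 before Siglech and 0 before Zbtb46, against a median of 6 over 32851 entries. The transcription factor genes differed, with 27 such pairs before Batf3, 11 before Irf4 and 29 and 8 in the 2 entries of Irf8. The letters TATAAA were present in 4 of the 8 entries (12.4% of all entries), starting at -31 before Irf8 and -26 before Irf4 on the gene's strand, and further out, at -226 and -184, on the opposite strand before Clec9a and Cd209a. The PU.1 and IRF composite occurred once, before Cd209a at -152 (6.99% of all entries), and the AP-1 letters once, before Zbtb46 at -61 (6.75%). No member entry held the PU.1 core (2.44% of all entries) or the interferon response letters (7.13%). These matches describe the letters in these windows, and the study measured no factor binding.

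Reads were counted per gene, and levels are given as CPM, counts per 1000000 counts of the library. Totals ran from 20818989 to 51241336 over the 25 libraries and from 23129017 to 40345401 in stroma, where 3 counts correspond to 0.0744 to 0.130 CPM, a limit that covers counting error only. In peritoneal stroma, the library of mouse 1 stood apart with S100a8 at 1011 CPM and S100a9 at 1277 CPM, both neutrophil and monocyte genes, against at most 58.1 and 129 CPM in the other 3 libraries. Differences between sites were tested with the edgeR quasi-likelihood test on TMM-scaled counts over 14755 genes, and a gene was called when its Benjamini-Hochberg adjusted p was under 0.05. The log2 fold change is peritoneal over liver stroma and is given with its standard error (SE), so a negative value is a lower level in the peritoneum.

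All 10 genes passed the filter on low counts in stroma. Of these, 7 were lower in peritoneal stroma (Clec9a, Batf3, Irf8, Itgae, Cd209a, Irf4 and Siglech) and 0 were higher, while 14.9% of all genes tested were lower and 18.5% higher. At an unadjusted p under 0.05, 8 members passed, all of them lower, and DESeq2 called 8 lower and 0 higher. The median log2 fold change of the 10 genes was -0.89, beside -0.02 over all genes tested. The 4 cDC1 genes were all called, 2 of the 4 cDC2 genes were called, and so was the plasmacytoid gene. Levels of the 2 groups of 4 libraries did not overlap for 6 members (Clec9a, Batf3, Irf8, Itgae, Cd209a and Sirpa), all lower in the peritoneum, and this held for 23.8% of all genes tested. In bulk RNA, fewer dendritic cells and less RNA per cell cannot be told apart.

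**Figure D1:**
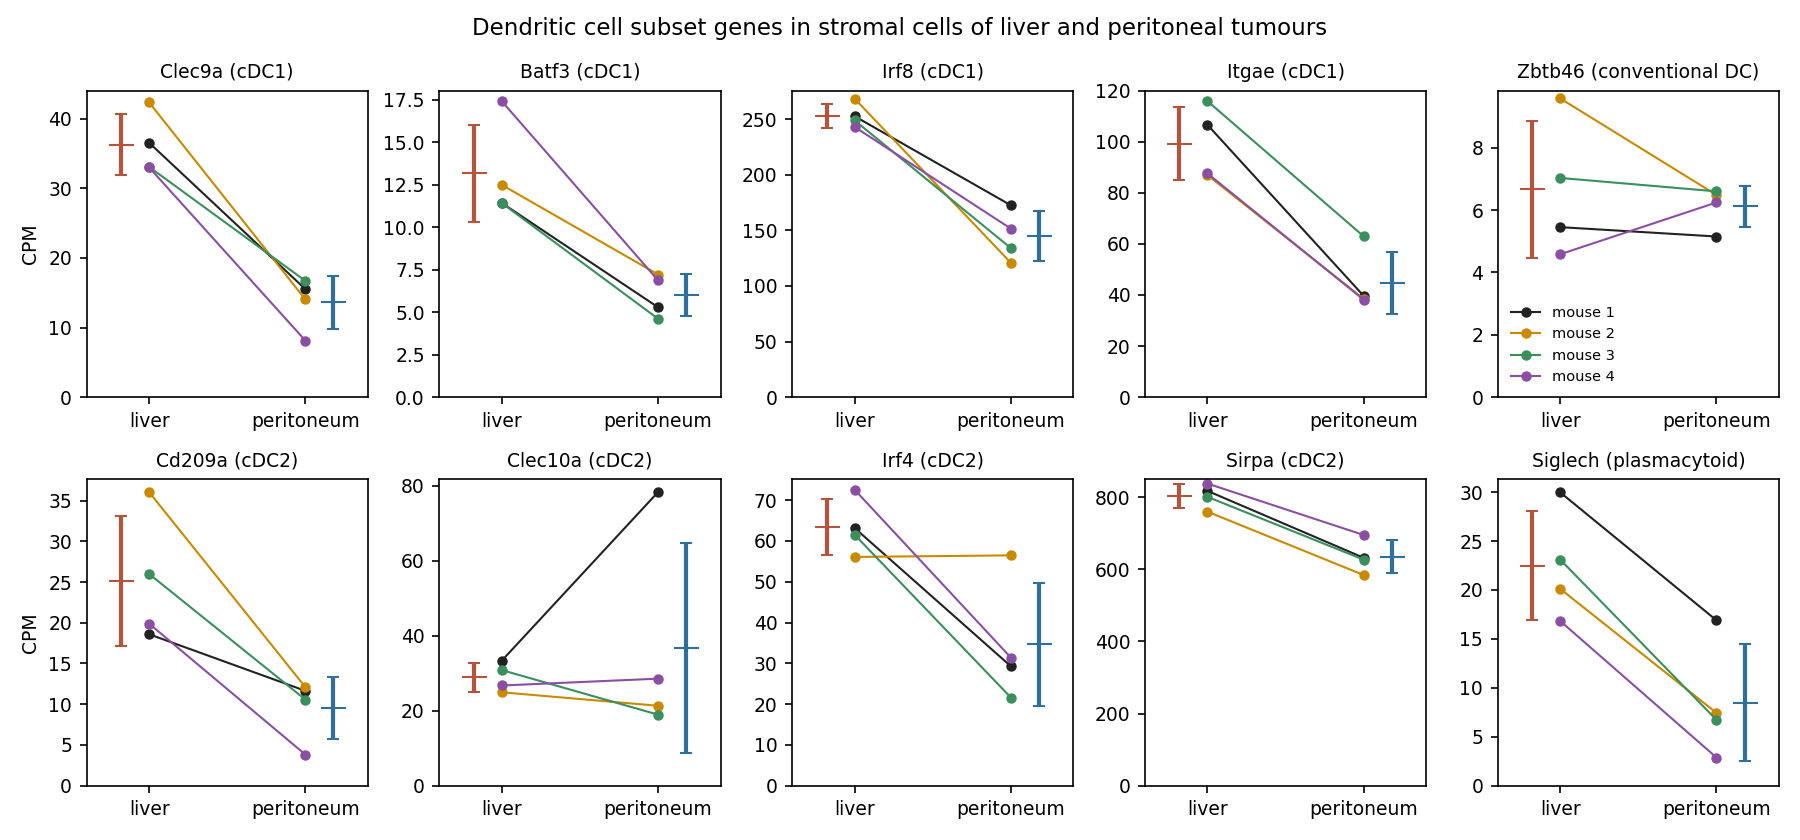
CPM (y axis, from 0) of each of the 10 genes in liver and peritoneal stroma, with lines joining the libraries of 1 mouse and bars for the mean and SD over 4 mice. Clec9a falls from 36.3 to 13.6 CPM on average with no overlap, whereas Clec10a is high in mouse 1 of the peritoneum at 78.4 CPM.

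Clec9a (chr6:129358880-129374780 on the plus strand of mm9), the cDC1 receptor for dead cells, stood at 36.6, 42.4, 33.1 and 33.0 CPM in liver stroma of mice 1 to 4. The same mice had 15.5, 14.1, 16.7 and 8.14 CPM in peritoneal stroma. Every liver library was above every peritoneal one, by 1.98- to 4.06-fold within a mouse. The log2 fold change was -1.29 (SE 0.20, edgeR adjusted p = 8.88e-04), and the call was made under all 16 alternative settings run, with log2 fold changes from -1.41 to -0.71.

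Batf3 (chr1:192922293-192932822 on the plus strand), a transcription factor needed for the cDC1 lineage, was counted at 11.4, 12.5, 11.4 and 17.4 CPM in liver stroma and 5.29, 7.22, 4.61 and 6.88 CPM in peritoneal stroma of mice 1 to 4. It was lower in the peritoneum of each mouse, with a log2 fold change of -1.02 (SE 0.19, edgeR adjusted p = 0.00314).

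Irf8 (chr8:123260258-123280594 on the plus strand), which directs the cDC1 and plasmacytoid fates and is also active in monocytes and B cells, had liver levels of 252, 268, 249 and 243 CPM. Its peritoneal levels were 172, 121, 134 and 151 CPM. The liver values lay within a narrow range and the peritoneal values all below it, with a log2 fold change of -0.69 (SE 0.11, edgeR adjusted p = 9.96e-04). The call was lost when all 16 sorted libraries shared 1 fit.

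Itgae (chr11:72904085-72960948 on the plus strand), the CD103 integrin chain of cDC1 and of tissue T cells, ranged over 107, 86.9, 116 and 87.5 CPM in liver stroma and 39.6, 38.4, 63.0 and 38.1 CPM in peritoneal stroma. Mouse 3 was highest at both sites and the groups did not overlap. Itgae had a log2 fold change of -1.03 (SE 0.19, edgeR adjusted p = 0.00254). Summed over 7 genes, T cell genes ran from 17.4 to 26.8 CPM in liver and from 20.3 to 40.0 CPM in peritoneal stroma. Of the 6 T cell genes tested, 1 was called higher and 0 lower, where 18.5% of all genes tested were higher. This was Cd3e, a subunit of the T cell receptor complex, which rose from 1.63 ± 0.48 to 10.6 ± 5.08 CPM (SD, n = 4). The part of T cells in the Itgae level was not tested.

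Among the cDC2 genes, Cd209a (chr8:3743395-3748984 on the minus strand), the mouse DC-SIGN lectin, stood at 18.6, 36.0, 26.0 and 19.9 CPM in liver stroma. Peritoneal stroma held 11.6, 12.1, 10.6 and 3.82 CPM. The groups did not overlap, although the within-mouse ratio ran from 1.60 to 5.20. Cd209a had a log2 fold change of -1.28 (SE 0.33, edgeR adjusted p = 0.0147).

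Irf4 (chr13:30841095-30858796 on the plus strand), a transcription factor of cDC2 and of plasma cells, was at 63.2, 56.1, 61.5 and 72.5 CPM in liver and at 29.3, 56.5, 21.6 and 31.4 CPM in peritoneal stroma. Mouse 2 did not share the fall, having 56.1 CPM in the liver and 56.5 CPM in the peritoneum, so the groups overlapped. The log2 fold change was -0.76 (SE 0.25, edgeR adjusted p = 0.0390). That call was lost on leaving out any of 6 libraries, namely mice 1, 3 or 4 at either site, with adjusted p up to 0.0968, and also without both libraries of mouse 1 and in the fit of all 16 sorted libraries.

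Sirpa (chr2:129418571-129457964 on the plus strand), an inhibitory receptor for CD47 on cDC2 and macrophages, was the most abundant of the 10 genes. It had 817, 759, 800.4 and 837 CPM in liver stroma and 632, 584, 626 and 695 CPM in peritoneal stroma. The groups did not overlap and all 4 mice were lower in the peritoneum, by 1.21- to 1.30-fold. The log2 fold change of -0.23 (SE 0.09) missed the threshold with an edgeR adjusted p of 0.0859, and it passed with the mouse as a block (-0.23, edgeR adjusted p = 0.0279) and in DESeq2 (-0.23, adjusted p = 0.0307).

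Clec10a (chr11:69980125-69984336 on the plus strand), a galactose-type lectin of cDC2 and some macrophages, was at 33.4, 24.9, 30.8 and 26.7 CPM in liver stroma and at 78.4, 21.3, 18.9 and 28.6 CPM in peritoneal stroma. In the peritoneum it was lower in 2 of 4 mice and higher in the other two, and the log2 fold change was 0.45 (SE 0.40, edgeR adjusted p = 0.428). The high library was the one with high S100a8 and S100a9, and F13a1, a monocyte and macrophage transglutaminase gene, was also highest there at 781 CPM, against 174 to 269.6 CPM in the other 3. Without that library the log2 fold change was -0.20 (edgeR adjusted p = 0.390). The part of those cells in the Clec10a level was not tested. Clec10a and Mgl2 are close copies, as are Sirpa and the Sirpb genes and the members of the Cd209 cluster, and how reads shared by such copies were assigned is not given, so their counts are uncertain to that extent.

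Siglech (chr7:63023548-63034295 on the plus strand), the plasmacytoid lectin, fell within every mouse, from 30.0, 20.1, 23.1 and 16.8 CPM in liver stroma to 16.9, 7.44, 6.72 and 2.88 CPM in peritoneal stroma. Mouse 1 was highest at both sites and mouse 4 lowest, and the peritoneal value of mouse 1 just exceeded the liver value of mouse 4. The log2 fold change was -1.30 (SE 0.43, edgeR adjusted p = 0.0408). The call was lost on leaving out any liver library or the peritoneal library of mouse 2 or 3, with adjusted p up to 0.102, and with the mouse as a block the log2 fold change was -1.49 (edgeR adjusted p = 0.00581).

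Zbtb46 (chr2:181122467-181194131 on the minus strand), a zinc finger factor of conventional dendritic cells, had 5.45, 9.58, 7.03 and 4.58 CPM in liver stroma and 5.15, 6.49, 6.60 and 6.24 CPM in peritoneal stroma. The groups overlapped in full, with a log2 fold change of 0.00 (SE 0.21, edgeR adjusted p = 0.992). Among 6 endothelial genes, whose sum ran from 447 to 890.1 CPM in liver and from 346 to 517 CPM in peritoneal stroma, 1 was lower in the peritoneum (Kdr) and 0 were higher. How much of the Zbtb46 level came from endothelial or tumour cells was not tested.

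Both stromal libraries of a mouse carry the same sequencing lane in their labels for 3 of the 4 mice. Within those 3 mice, 8 members, the 7 called genes and Sirpa, were lower in the peritoneum in 3 of 3, with log2 ratios of CPM from -2.55 to -0.27, and 41.7% of all genes tested were lower in all 3 of these mice.

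Levels per length, in RPKM (CPM per 1000 bases of exon), allow the members to be ordered. In liver stroma Sirpa led with 164 ± 6.75 RPKM (SD, n = 4), followed by Irf8 with 35.9 ± 1.54. Itgae (21.7 ± 3.14), Batf3 (18.5 ± 4.02), Cd209a (16.9 ± 5.36), Clec10a (15.6 ± 2.08), Irf4 (13.4 ± 1.45) and Clec9a (10.9 ± 1.32) came next, and each neighbouring pair in that run overlapped between libraries. Siglech (6.65 ± 1.66) and Zbtb46 (0.78 ± 0.26) closed the order without overlap. In peritoneal stroma the ends were alike, with Sirpa at 129 ± 9.33 and Zbtb46 at 0.72 ± 0.08 RPKM. Clec10a followed Irf8 there, at 19.9 ± 15.1 RPKM, with a range of 10.2 to 42.3 that overlapped those of Irf8 above and Itgae below.

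The question behind the site comparison is how the immune cells around the tumour differ between liver and peritoneum, so the members were also set against leukocyte content. The summed level of 7 general leukocyte genes (Ptprc, Cd53, Coro1a, Laptm5, Cd52, Arhgdib and Ptpn6) was 4319 ± 198 CPM in liver and 2666 ± 207 CPM in peritoneal stroma (SD, n = 4), 1.62-fold higher in the liver, and 6 of the 7 were called lower in the peritoneum. Ptprc, which encodes CD45, fell from 926 ± 19.7 to 501 ± 52.1 CPM. Scaling the libraries to these 7 genes in place of all genes moved the median log2 fold change of all genes to 0.56, with 2.22% of genes then lower and 65.6% higher in the peritoneum.

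On that scale Clec9a was the only member called lower, with a log2 fold change of -0.71 (edgeR adjusted p = 0.0179). Sirpa turned to the opposite direction at 0.36 (edgeR adjusted p = 0.00339), and Clec10a was higher at 1.004 (edgeR adjusted p = 0.0284). Irf8 lay at -0.12 and Irf4 at -0.15, neither called. With the mouse as a block on the same scale, Clec9a, Batf3, Itgae, Cd209a and Siglech were lower, at log2 fold changes from -0.91 to -0.44. Zbtb46, Clec10a and Sirpa were higher, at 0.35 to 0.80. The block therefore changed the calls of Batf3, Itgae, Cd209a, Siglech and Zbtb46 on the leukocyte scale. Of all 14755 genes tested, 407 were lower and 10161 higher in that fit, with a median log2 fold change of 0.56.

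**Figure D2:**
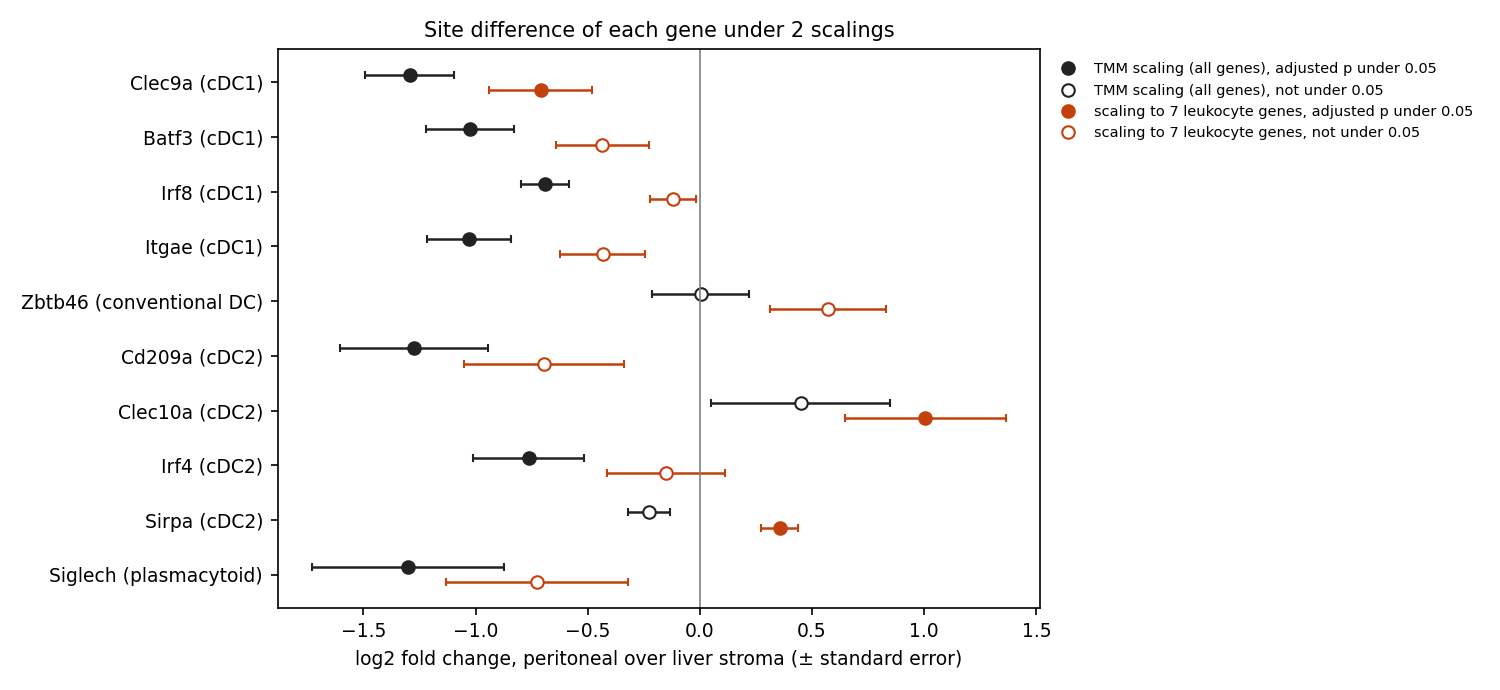
Log2 fold change of each gene, peritoneal over liver stroma (x axis), with bars for the standard error. Black points use all genes for scaling and orange points 7 leukocyte genes, and filled points have an adjusted p under 0.05, so that 7 black points are filled on the left while only Clec9a stays filled there in orange, at -0.71, beside Sirpa and Clec10a on the right.

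Counts per 1000 counts of Ptprc gave the levels relative to 1 leukocyte gene. Clec9a was 39.2 ± 4.78 in liver and 27.7 ± 9.42 in peritoneal stroma, lower in 3 of 4 mice and overlapping. Siglech was lower in 4 of 4 mice, at 24.4 ± 6.30 against 16.8 ± 10.5. Irf8 was at 273 ± 13.9 against 288 ± 25.8, lower in 1 of 4 mice. Sirpa (868 ± 32.9 against 1272 ± 112) and Clec10a (31.3 ± 4.54 against 70.9 ± 48.0) were higher in the peritoneum of every mouse, without overlap between sites. Zbtb46 (7.21 ± 2.41 against 12.4 ± 2.45) was also higher there in every mouse, with overlap. Ptprc itself was lower in the peritoneum, which raises every ratio to it there. The share of all genes that were higher per Ptprc was not computed. Under scaling to the 7 leukocyte genes, 65.6% of all genes tested were called higher. Their median log2 fold change over all genes was 0.56, beside 0.36 for Sirpa and 1.004 for Clec10a. The direction of Sirpa thus depended on the scale, being lower per total reads and higher per Ptprc.

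The balance between subsets was read as the difference of log2(CPM + 0.5) between 2 genes of a library, which does not depend on the scaling. Each subset was represented by a single gene, so the result holds for these genes and not for a subset as a whole. For cDC2 this was Cd209a, with a site log2 fold change of -1.28. Pairs with the other cDC2 members, Clec10a (0.45), Irf4 (-0.76) and Sirpa (-0.23), were not tested. Clec9a exceeded Cd209a by 0.56 ± 0.34 in liver stroma and by 0.56 ± 0.34 in peritoneal stroma (SD, n = 4), and the site difference was -0.001 (two-sided exact permutation test, p = 1). CPM is not corrected for length, so only the site difference is read here and not which gene is higher. Per length the order of the means was the reverse. Cd209a was at 16.9 and Clec9a at 10.9 RPKM in liver stroma, and at 6.43 and 4.08 RPKM in peritoneal stroma. Siglech minus Clec9a was -0.70 ± 0.37 in the liver and -0.84 ± 0.67 in the peritoneum (exact permutation p = 0.771). Siglech minus Cd209a was -0.14 ± 0.62 in the liver and -0.28 ± 0.55 in the peritoneum (exact permutation p = 0.714). Adjusted over the 3 pairs each p was 1, and the smallest p that 4 against 4 libraries allow is 0.0286. Leaving out 1 library moved the Clec9a and Cd209a site difference between -0.15 and 0.13, the Siglech and Clec9a one between -0.46 and 0.03, and the Siglech and Cd209a one between -0.41 and 0.13.

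**Figure D3:**
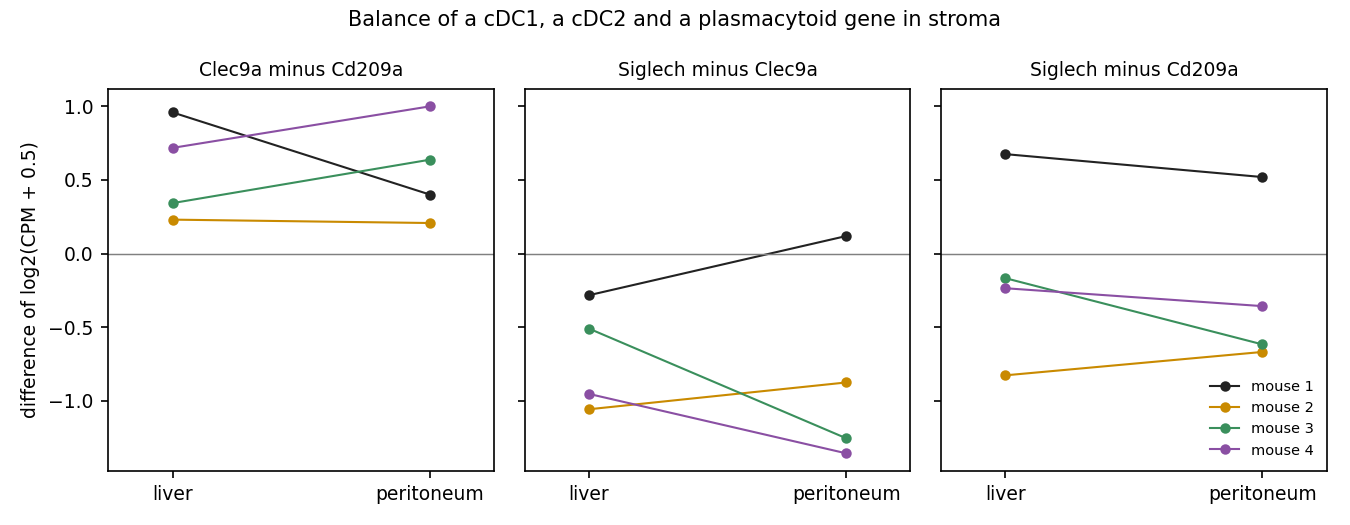
Difference of log2(CPM + 0.5) between a pair of subset genes (y axis) in liver and peritoneal stroma, with 1 line per mouse. Lines run up in some mice and down in others, and Clec9a lies above Cd209a in all 8 libraries in CPM, which is not corrected for gene length.

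Members varied together between mice to different degrees. After subtracting site means of log2(CPM + 0.5) over the 8 stromal libraries, Clec9a and Cd209a had a Pearson r of 0.89, Clec9a and Siglech 0.71, and Cd209a and Sirpa -0.91, the lowest of the 45 pairs. These are descriptions over 8 libraries that share mice and composition. Mouse 4 had the lowest peritoneal level of Clec9a, Cd209a and Siglech, and also of Flt3 (6.91 CPM) and Xcr1 (6.38 CPM). By the same measure over 13457 genes, the genes most like Clec9a were Sfrp4 (r = 0.98), Arntl (0.97) and Xcr1 (0.96), the last being the chemokine receptor of cDC1. Those most like Cd209a were Mgat1 (0.99), Pdlim1 (0.98) and Rbm43 (0.98), and those most like Siglech were Ift74 (0.99), Htra1 (0.98) and Srp9 (0.97). These genes were picked as the highest among 13457 genes over only 8 libraries, and their likeness was not tested.

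Other genes of the subsets were taken from lists. Of 6 other cDC1 genes, 5 were lower in the peritoneum and 0 higher, with a median log2 fold change of -0.64. On the leukocyte scale 0 were lower and 1 higher, with a median of -0.06. The background for each list on that scale is 2.22% of all genes tested lower and 65.6% higher, with a median of 0.56. Xcr1, which attracts cDC1 towards Xcl1, was at 21.8 ± 3.80 and 10.6 ± 2.90 CPM (SD, n = 4) with a log2 fold change of -0.92 (edgeR adjusted p = 0.00757), against -0.34 (edgeR adjusted p = 0.232) on the leukocyte scale. Wdfy4, needed for cross-presentation, fell by 0.76 on the log2 scale (edgeR adjusted p = 6.38e-04), as did the adhesion gene Cadm1 (edgeR adjusted p = 0.00347). Naaa and Id2 were the other 2 called, and Cadm1 and Id2 are not restricted to leukocytes, with 308 ± 11.5 and 699 ± 97.5 CPM in BMEL WT cultures.

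Of 7 genes shared by conventional dendritic cells, 6 were lower and 0 higher, with a median of -0.62. Flt3, the growth factor receptor of their precursors, was at 29.2 ± 2.36 and 12.3 ± 4.26 CPM, a log2 fold change of -1.13 (edgeR adjusted p = 0.00421). Itgax, which encodes CD11c and is also on macrophages, was at 635 ± 88.3 and 381 ± 65.7 CPM (-0.62, edgeR adjusted p = 0.0111). The MHC class II genes moved with them: Ciita, the class II transactivator, had a log2 fold change of -0.84 (edgeR adjusted p = 0.0117) and H2-Ab1, a class II beta chain, -0.72 (edgeR adjusted p = 0.00201). On the leukocyte scale 0 of these 7 genes were called.

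The 7 other cDC2 genes were mixed, with 2 lower (Cd24a and Notch2), 1 higher (Klf4) and a median of -0.27. On the leukocyte scale 0 were lower and 2 higher, with a median of 0.32, where 65.6% of all genes tested were higher. Klf4, a transcription factor of a cDC2 branch that epithelial and mesenchymal cells share, rose from 468 ± 38.6 to 803 ± 122 CPM (log2 fold change 0.89, edgeR adjusted p = 6.87e-04), and it was at 212 ± 35.3 CPM in BMEL WT cultures. Cd24a had a log2 fold change of -0.83 (edgeR adjusted p = 0.00531). Notch2, a receptor needed by part of the cDC2 lineage, fell by 0.38 on the log2 scale (edgeR adjusted p = 0.0109), and its sign turned on the leukocyte scale (0.21, edgeR adjusted p = 0.110).

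Of 9 other plasmacytoid genes, 3 were lower and 0 higher, with a median of -0.97. On the leukocyte scale 2 were lower and 1 higher, with a median of -0.40, where 2.22% of all genes tested were lower and 65.6% higher. Spib, an Ets factor of plasmacytoid and B cells, fell from 22.7 ± 6.47 to 6.91 ± 4.77 CPM (log2 fold change -1.61, edgeR adjusted p = 0.0133). Ly6d was at 2.64 ± 0.58 and 0.457 ± 0.526 CPM (-2.48, edgeR adjusted p = 0.0189) and Pacsin1 at 8.91 ± 0.78 and 4.21 ± 1.79 CPM (-0.97, edgeR adjusted p = 0.0155). Spib and Ly6d are also used by B cells, and 5 of 5 B cell genes were lower in the peritoneum, their sum running from 24.1 to 43.9 CPM in liver and from 2.38 to 10.96 CPM in peritoneal stroma. The part of B cells in Spib, Ly6d, Irf8 and Irf4 was not tested.

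Genes of mature dendritic cells did not follow 1 direction: of 12, 4 were lower (Ccr7, Cd80, Cd83 and Ccl17) and 2 higher (Fscn1 and Cacnb3), with a median of -0.50. On the leukocyte scale 0 were lower and 4 higher, with a median of 0.08, where 65.6% of all genes tested were higher and their median was 0.56. Ccr7, the receptor that guides mature dendritic cells to lymph nodes, was at 34.9 ± 11.9 and 17.5 ± 6.23 CPM (-0.89, edgeR adjusted p = 0.0411). Cd80, a costimulatory ligand, had a log2 fold change of -0.81 (edgeR adjusted p = 0.00662). Fscn1, which bundles actin, rose by 0.95 (edgeR adjusted p = 2.15e-04) and Cacnb3, a calcium channel subunit, by 0.89 (edgeR adjusted p = 6.38e-05) on the log2 scale. Both of these were also counted in cultured BMEL WT cells, at 167 ± 8.22 and 61.9 ± 7.35 CPM, which hold no leukocytes, and Ccr7 was at 0 there in all 3 libraries. Which cells of the stroma gave the changes of Fscn1, Cacnb3 and Ccr7 was not tested.

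Markers of other cells in the stroma moved as well. Among 11 macrophage genes 1 was lower (Csf1r, -0.41, edgeR adjusted p = 0.0270) and 0 were higher, and Adgre1, which encodes F4/80, was at 138 ± 37.4 and 139 ± 39.8 CPM. On the leukocyte scale 0 of the 11 were lower and 7 higher, with a median of 0.48, and Adgre1 was at 0.70 (edgeR adjusted p = 0.0117). This is near the background on that scale, where 65.6% of all genes tested were higher and the median was 0.56. All 5 Kupffer cell genes were tested and 4 were lower: Clec4f was at 108 ± 71.8 CPM in liver stroma and at 0 in all 4 peritoneal libraries, and Vsig4, Timd4 and Cd5l were lower too. Among 5 genes of peritoneal macrophages 1 was higher (Prg4, 1.31, edgeR adjusted p = 0.0346), and among 5 monocyte genes Plac8 was lower (-1.41, edgeR adjusted p = 1.89e-04) and F13a1 higher (2.03, edgeR adjusted p = 0.00492). NK cell genes were lower in 4 of 5 cases (Gzma, Ncr1, Eomes and Klrb1c), plasma cell genes in 2 of 4 (Mzb1 and Prdm1), and neutrophil genes in 2 of 5 (Csf3r and Cxcr2), where 14.9% of all genes tested were lower. On the leukocyte scale 1 of the NK cell genes (Gzma), 1 plasma cell gene (Mzb1) and 1 neutrophil gene (Csf3r) were lower, and 1 plasma cell gene was higher. On that scale 2.22% of all genes tested were lower. The neutrophil genes S100a8, S100a9 and Ly6g were not called. S100a8 ran from 186 to 338 CPM in liver stroma and was at 1011, 58.1, 52.3 and 56.3 CPM in peritoneal stroma of mice 1 to 4. All of these uncalled neutrophil genes were above every liver library in peritoneal mouse 1 and below every one in mice 2 to 4. Hepatocyte genes were lower in all 4 that could be tested, with a sum of 35.8 to 231.5 CPM over 5 genes in liver and of at most 1.72 CPM in peritoneal stroma. The part of these cells in the levels of Irf8, Irf4, Itgae, Sirpa and Clec10a was not tested.

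Stroma was also compared with the tumour cells of the same site, which asks how far these genes belong to the stroma. The comparison can be read for Irf8, Zbtb46 and Sirpa, which had enough counts in tumour cells to be tested there. The other 7 members passed the filter on low counts only through stroma, so they had to differ, and they are given below by their levels. Irf8 was higher in stroma by a log2 fold change of 7.80 (SE 0.20) in the liver and 6.37 (SE 0.85) in the peritoneum, and Sirpa by 8.46 (SE 0.23) and 6.79 (SE 1.01). Zbtb46 was apart, with 0.68 (SE 0.21, edgeR adjusted p = 0.00947) in the liver and 0.59 (SE 0.18, edgeR adjusted p = 0.0138) in the peritoneum. All 3 were called at both sites, where 39.4% of genes tested were higher in stroma in the liver and 37.1% in the peritoneum.

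In tumour cells, Clec9a was at 0.0230 to 0.140 CPM in the liver, with 1 to 5 counts a library, and at 0 in 2 of the 4 peritoneal libraries. No liver tumour cell library held more than 11 counts of any of the 7 members too low to be tested. In peritoneal tumour cells these 7 had at most 113 counts in mouse 1 and at most 21 in the other 3 mice, both for Clec10a. Sirpa was at 1.72, 2.03, 2.22 and 3.77 CPM in liver tumour cells and at 19.3, 1.81, 2.44 and 1.21 CPM in peritoneal tumour cells of mice 1 to 4. The library of peritoneal tumour cells of mouse 1 was the highest of its group for 9 of the 10 members, all but Zbtb46, which was lowest there at 3.41 CPM, and the summed macrophage genes reached 351 CPM there, against a group median of 86.3 CPM. Whether stromal cells in that sort gave these counts was not tested. Without it, the log2 fold change of stroma over tumour cells in the peritoneum was 8.09 for Irf8, 8.60 for Sirpa and 0.58 for Zbtb46.

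Between the 2 sites, tumour cells could be tested for 3 members (Irf8, Zbtb46 and Sirpa), since the others were too low. With edgeR 0 of the 3 were called, with 0 at an unadjusted p under 0.05, while 3.2% of all genes tested were called. DESeq2 gave an adjusted p for Zbtb46 alone and did not call it. The site difference in stroma minus that in tumour cells was tested as an interaction over 15331 genes. It was -1.36 for Irf8 (SE 0.79, edgeR adjusted p = 0.271), -1.61 for Sirpa (SE 0.87, edgeR adjusted p = 0.238) and -0.04 for Zbtb46 (SE 0.27, edgeR adjusted p = 0.943), and 0 of the 3 passed at an unadjusted p under 0.05. The values of Irf8 and Sirpa hang on the peritoneal tumour cells of mouse 1. Without that library the site log2 fold change in tumour cells went from 0.64 to -0.98 for Irf8 and from 1.32 to -0.45 for Sirpa. In that fit 1 of the 3 passed at an unadjusted p under 0.05 and 0 were called. The interaction was not refitted without that library. For the other 7 members the interaction cannot be read, since their counts in tumour cells were too low.

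**Figure D4:**
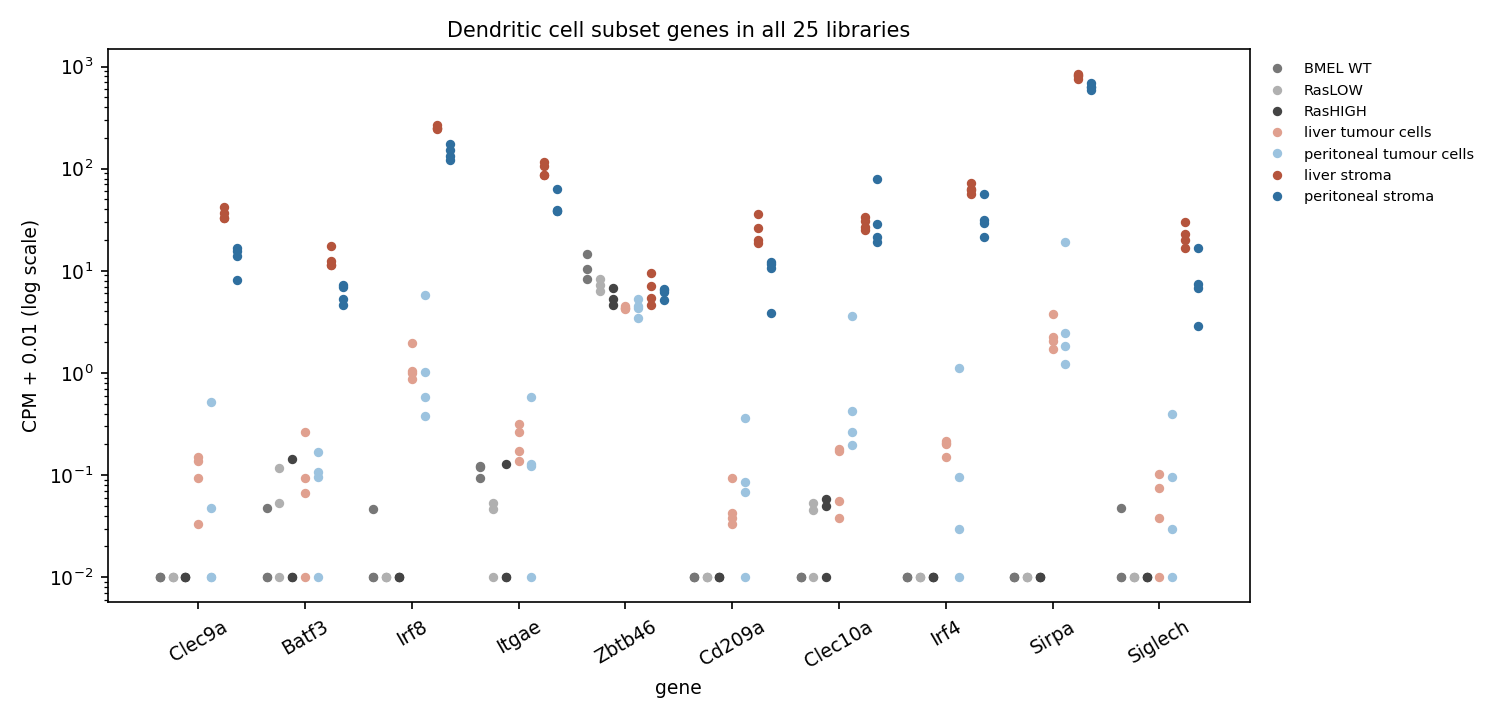
CPM plus 0.01 on a log scale (y axis) of each gene in all 25 libraries, 1 point a library, coloured by group. Stroma lies far above tumour cells and cultures for 9 genes, whereas Zbtb46 is between 3.41 and 14.6 CPM in every library.

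Cultured cells gave the background without any host cell. Clec9a, Cd209a, Irf4 and Sirpa had 0 counts in all 9 cultures, and Batf3, Irf8, Itgae, Clec10a and Siglech had group means of at most 0.102 CPM. Zbtb46 was counted in every culture, at 11.1 ± 3.20 CPM in BMEL WT, 7.25 ± 0.98 in RasLOW and 5.58 ± 1.11 in RasHIGH cells (SD, n = 3). Its levels in tumour cells were 4.33 ± 0.14 CPM in the liver and 4.39 ± 0.77 CPM in the peritoneum (SD, n = 4). The order of its group means was thus BMEL WT, RasLOW, liver stroma, peritoneal stroma, RasHIGH, peritoneal tumour cells and liver tumour cells, and of these neighbours only BMEL WT and RasLOW did not overlap between libraries. Differences between the cultured groups were not tested here.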

How the data were processed

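RNA was extracted from 9 cultures and from 16 samples of sorted tumour and stromal cells, and mRNA libraries (NuGEN Universal Plus) were sequenced on an Illumina HiSeq instrument. The authors aligned reads to mm9 with TopHat2 and deposited raw counts per gene, which are not normalized. How reads were assigned to genes, with which strand setting and annotation, is not given in the sources used here, and the submitters' processing notes name FastQC, Bowtie 0.12.2 and the builds mm8 and mm10. Positions and exon lengths of the members were taken by symbol from a GENCODE annotation of mm9.

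Each comparison was fitted with edgeR 4.0.16 (R 4.3.3) on the libraries of the 2 groups compared: filterByExpr with a minimum count of 10, TMM scaling, quasi-likelihood F-test, Benjamini-Hochberg adjustment over all genes tested, calls at an adjusted p under 0.05. CPM and RPKM values use the total counts, and errors beside them are SDs. Groups came from the sample labels. The members and all lists were chosen with earlier results of these data known.

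Genes named are the 10 members, from each list the called genes with the largest changes (at most 4, with at least 100 counts over the 8 stromal libraries), the markers Ptprc, Itgax, Flt3, Xcr1, Ccr7, Adgre1, Csf1r and Cd3e, and the 3 genes most like Clec9a, Cd209a and Siglech (mean CPM at least 1, members left out). Naaa, Id2, Cd83, Ccl17, S100a8, S100a9 and Ly6g were named after their values were seen. The balance of 3 pairs of genes was tested by exact permutation of libraries (two-sided), with sign flips within mice as the alternative. Same-numbered libraries come from 1 mouse, and deviations from group means in liver and peritoneal stroma correlated with r of -0.003, 0.136, 0.122 and 0.285 in mice 1 to 4.

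Alternatives were DESeq2 1.42.0, RLE scaling, no filter, the mouse as a block, each library left out, scaling to 7 leukocyte genes, all 16 sorted libraries in 1 fit and, for the number of genes called, the study's thresholds (absolute log2 fold change above 1, unadjusted p under 0.05). Leukocyte scaling with the block and leaving out both stromal libraries of mouse 1 were chosen after seeing the data. Tested on simulated counts for the stroma comparison (14755 genes, 200 changed by a log2 fold change of 1), edgeR recovered 130 of 199 changed genes tested, with 7 false calls.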

Additional observations from a re-analysis of the deposited data

Results flagged for a closer look

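Levels of the 10 genes were searched for a library standing apart in each of the 40 groups of 4 libraries by Dixon's ratio at its 95% critical value, and 9 were found, where chance gives about 1 in 20 groups. Of these, 5 were in peritoneal tumour cells of mouse 1, the highest of its group with Clec9a at 0.510 CPM, Irf8 at 5.77, Clec10a at 3.60, Irf4 at 1.12 and Sirpa at 19.3 CPM. Macrophage genes summed to 351 CPM in that library, against a group median of 86.3 CPM, and their part in these levels was not tested. In liver tumour cells, Irf8 stood apart in mouse 4 with 1.96 CPM, and Cd209a in mouse 3 with 0.0842 CPM, which is 3 counts. In stroma of peritoneal tumours, Itgae was far above the others in mouse 3 with 63.0 CPM and Clec10a in mouse 1 with 78.4 CPM.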

How the results depend on the processing

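Among the site differences in stroma, the number of genes called was 4926, against 2107 under the study's thresholds, 10010 with leukocyte scaling and 10568 with leukocyte scaling and the mouse as a replicate block. The share of called genes that were lower in the peritoneum was 44.7%, against 3.27% with leukocyte scaling and 55.3% with all 16 sorted libraries in 1 fit. Leukocyte scaling moves every fold by construction. Members lower in the peritoneum numbered 7, against 1 with leukocyte scaling, and between 5 and 6 when 1 library was left out. Members higher numbered 0, against 2 with leukocyte scaling and 3 with leukocyte scaling and the block. In the latter 2 settings 9683 and 10161 of the 14755 genes tested were higher. Values that turned sign with leukocyte scaling were Sirpa (0.36, and 0.35 with the block), Id2 (0.053 and 0.042), Notch2 (0.21 and 0.20) and Csf1r (0.16 and 0.15). The medians of the other cDC2 genes (0.32), mature dendritic cell genes (0.08), macrophage genes (0.48), peritoneal macrophage genes (0.39) and endothelial genes (0.22) turned as well. Pairing by mouse left the other member calls on the TMM scale as they were, apart from Sirpa, which it added, for 8 lower. In tumour cells, 419 genes differed between sites, against 1146 with DESeq2, 102 with the replicate block and 41 to 884 with 1 library left out, the lowest without liver mouse 2 and the highest without peritoneal mouse 1, and the cause was not tested. In tumour cells only Irf8, Zbtb46 and Sirpa had levels high enough to be tested between sites.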

Other observations

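The genes whose variation between mice was most like that of Clec9a include Sfrp4, a secreted Wnt modulator, whose mean was 0.736 CPM in liver and 556 CPM in peritoneal stroma. Its likeness rests on deviations within sites, over 8 libraries, and was not tested. Arntl, a circadian clock factor, was at 11.7 and 15.6 CPM in the same groups.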
